A study of Mus musculus with 12 samples.

Results

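Glypicans and syndecans are the 2 main families of heparan sulfate proteoglycans held at the cell surface. The 9 members described here are Gpc1, Gpc2, Gpc3, Gpc4, Gpc6, Sdc1, Sdc2, Sdc3 and Sdc4, of 35976 genes listed in the count files. They were chosen by family, and the families were selected on the measured difference of Gpc1 between genotypes under traction, so the values of that comparison are given as a description without a test. Gpc5, the remaining glypican gene of the mouse, had 0 to 8 counts in a library and was not among them.

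RNA-seq was performed on scars of the back skin of male mice that were 8 to 12 weeks old at wounding. The 4 groups of 3 mice each were Tem1 WT/WT with sham, Tem1 WT/WT with traction, Tem1 lacZ/lacZ with sham and Tem1 lacZ/lacZ with traction. All mice had a 1.5-cm split wound and carried a plastic device from day 6, which was elongated by 1 mm per day to a total of 8 mm in the traction groups and not elongated in the sham groups. Tem1, whose symbol in the files is Cd248, has 1 exon, which in Tem1 lacZ/lacZ animals gives way to the lacZ reporter in every cell of the body, so the loss is not confined to the scar or to one cell type. The line had been backcrossed to C57BL/6J, and the RNA came from a piece of each scar with all its cell types together. The labels name the mice only by number. The p-values rest on the spread between the 3 mice within a group, pooled over the 4 groups in 1 fit.

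Glypicans are globular core proteins anchored to the outer leaflet of the membrane by a lipid anchor, and syndecans span the membrane and end in a short cytosolic tail. Both carry chains of heparan sulfate, a sulfated sugar polymer that is built on serine residues next to glycine. The chains hold growth factors, morphogens and matrix proteins near their receptors, and in wounded skin syndecans are known for their part in adhesion and re-epithelialisation.

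The places where the chains start are shown here because they are what makes these proteins proteoglycans. Each line gives 16 codons of the coding sequence around the densest run of serine-glycine pairs, read from GENCODE vM21 transcripts on GRCm38, 5′ to 3′ on the coding strand, with the serine-glycine codons in capitals. A serine-glycine pair is a candidate place and not proof of a chain.
Gpc1, chr1:92858027-92858375 on the plus strand, exons 8 and 9, 3 pairs: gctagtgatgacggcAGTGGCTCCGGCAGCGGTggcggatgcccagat
Gpc6, chr14:117964874-117974930 on the plus strand, exons 9 and 10, 4 pairs: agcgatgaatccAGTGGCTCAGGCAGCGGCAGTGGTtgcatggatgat
Sdc1, chr12:8789443-8790386 on the plus strand, exons 2 and 3, 3 pairs: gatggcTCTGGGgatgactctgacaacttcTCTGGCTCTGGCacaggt
Sdc3, chr4:130816941-130818607 on the plus strand, exons 2 and 3, 4 pairs: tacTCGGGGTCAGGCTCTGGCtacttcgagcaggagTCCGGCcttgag
Sdc4, chr2:164429716-164431223 on the minus strand, exons 2 and 3, 2 pairs: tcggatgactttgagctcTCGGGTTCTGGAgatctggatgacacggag
Each of these 5 windows crosses an intron, so its coordinates span more bases than are printed. The marked pairs of Gpc1 and Gpc6 lie back to back near the end of the coding sequence (codons 480 to 495 of 557 and 489 to 504 of 555). In Sdc1 the window lies near the start, at codons 35 to 50 of 311. This place is not the same in all glypicans: in Gpc2, not printed, the window is at codons 144 to 159 of 579. Over the whole coding sequence, the number of serine-glycine pairs ran from 2 in Gpc3 to 8 in Sdc3, with 6 in Gpc1.

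The syndecan tails are shown because their last residues bind the cytosolic partners described further on, syntenin (Sdcbp) among them. The last 8 codons before the stop are given, with the final 4 codons in capitals.
Sdc1, chr12:8791781-8791804 on the plus strand: accaagcaggagGAGTTCTACGCC
Sdc2, chr15:33032514-33032537 on the plus strand: gcacccactaagGAGTTTTATGCA
Sdc3, chr4:130822783-130822806 on the plus strand: gacaagcaggagGAGTTCTACGCT
Sdc4, chr2:164426089-164426112 on the minus strand: gcccccaccaatGAGTTCTACGCA
All 4 tails end in codons for glutamate, phenylalanine, tyrosine and alanine. Over the 8 codons, 7 encode the same residue in Sdc1 and Sdc3, and 7 do in Sdc2 and Sdc4, against 4 for each of the other pairings.

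The libraries held 41536788 to 64644293 counts. Cd248 was present in all 6 Tem1 WT/WT libraries, at 92.4 to 337 CPM (counts scaled to the size of the library, with TMM factors), and had 0 to 13 counts in each Tem1 lacZ/lacZ library. One library stood apart: in WT traction replicate 1 the neutrophil markers (5 tested of 6 listed) summed to 6719 CPM. The other libraries of its group had 585 and 280 CPM, so results that rest on replicate 1 are given with and without it. Markers of fibroblasts (8 genes) summed to 13294 to 17951 CPM in WT sham, 20414 to 55107 in WT traction, 8685 to 13941 in lacZ sham and 10736 to 24180 in lacZ traction. Markers of endothelium (6 genes) summed to 325 to 478, 783 to 895, 242 to 439 and 371 to 618 CPM in the same order. Hair follicle markers summed to 7506 to 14835 CPM in WT sham and 2378 to 4061 in WT traction. They summed to 2005 to 15322 CPM in lacZ sham and 4540 to 9173 in lacZ traction. Over all 12 libraries, macrophage markers summed to 1062 to 2437 CPM, Schwann cell markers to 180 to 276, adipocyte markers to 153 to 2648 and skeletal muscle markers to 165 to 7407 CPM, the last in WT sham replicate 1. No marker of fibroblasts or endothelium was at 0 throughout a group, and 1 neutrophil marker was at 0 in all WT sham libraries. In bulk tissue, a change in the number of cells of a type and a change of RNA per cell cannot be told apart.

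Gpc1, which binds fibroblast growth factors through its chains, is the member whose difference between genotypes led to the choice of the families. In WT sham it was at 85.2, 83.8 and 79.5 CPM, and in WT traction at 244, 180 and 198 CPM. In lacZ sham it was at 83.2, 64.8 and 64.7 CPM, and in lacZ traction at 94.0, 117 and 90.1 CPM. Every WT traction library lay above every other library, the lacZ traction libraries came next, and the 2 sham groups overlapped. The group means were 82.8 ± 2.99, 207 ± 32.6, 70.9 ± 10.6 and 100 ± 14.5 CPM (SD, n = 3 each).

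**Figure D1:**
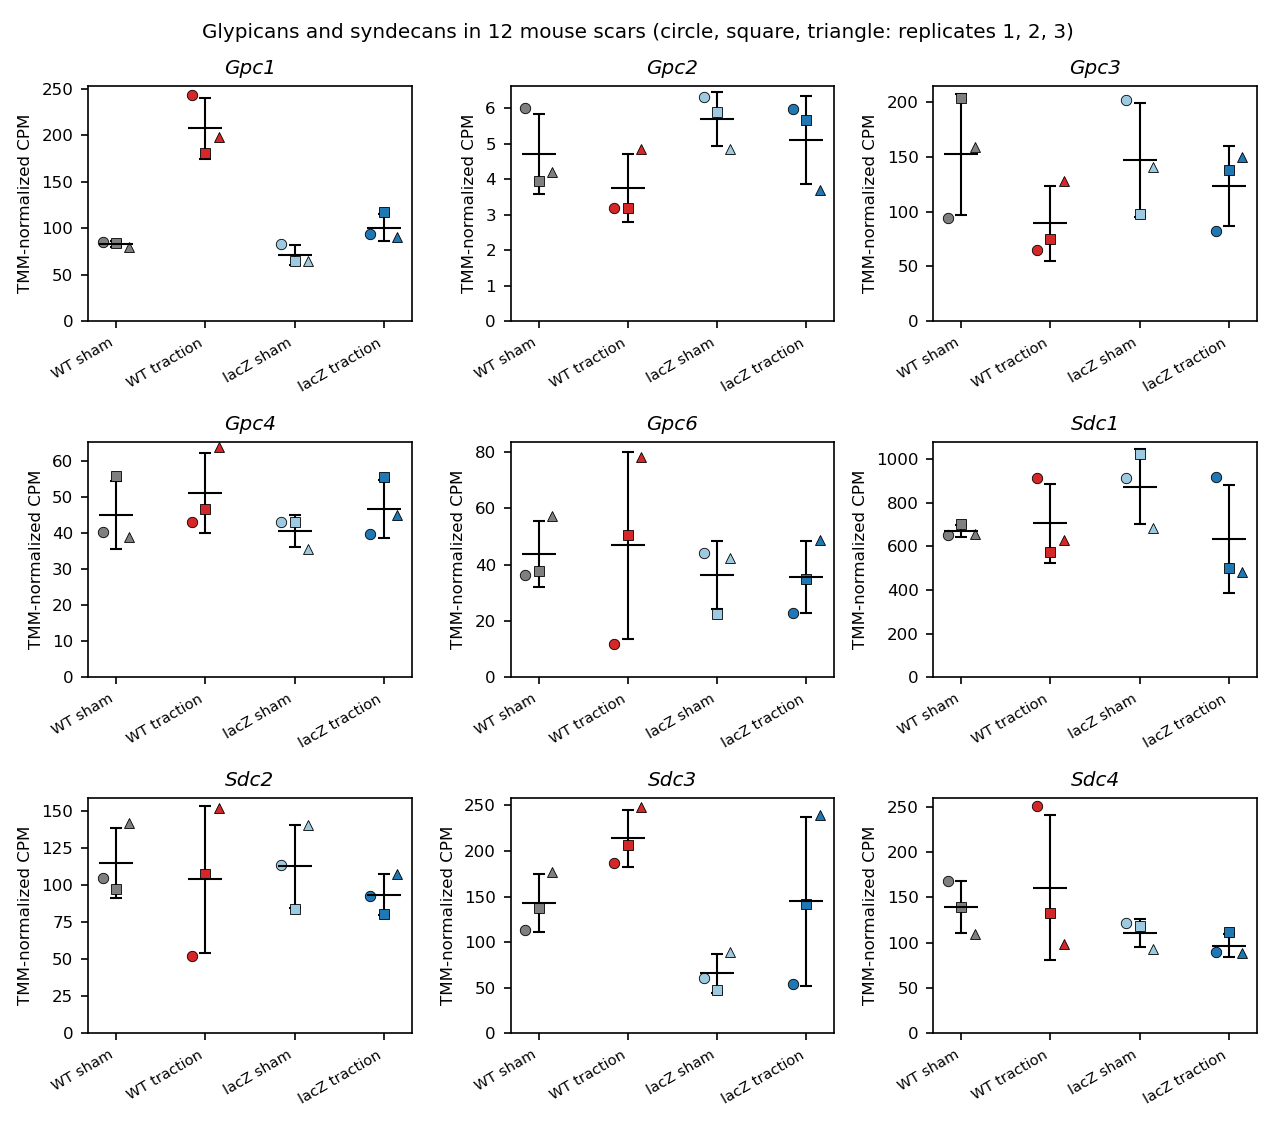
TMM-normalized CPM of the 9 core proteins in each of the 12 libraries, by group; black bars are the mean and SD of 3 mice. The 3 WT traction libraries of Gpc1 lie at 180 to 244 CPM and all other libraries at 64.7 to 117 CPM, while most other members overlap between groups.

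On the log2 scale, Gpc1 differed by 1.32 (SE 0.17, 95% interval 0.96 to 1.69) between traction and sham in Tem1 WT/WT mice, a fold of 2.50. In Tem1 lacZ/lacZ mice the same difference was 0.50 (SE 0.16, 0.14 to 0.86). Under traction, the difference of lacZ minus WT was -1.05 (SE 0.16), the value that chose the families, and the difference between the 2 traction effects was -0.82 (SE 0.23). The 2 traction effects and their difference share libraries with the comparison used for the choice, so no p is given for Gpc1 in them and counts of members past a threshold there are over the other 8. Without WT traction replicate 1 the 4 values were 1.17, 0.53, -0.88 and -0.64. The sham comparison uses other libraries: there lacZ minus WT was -0.22 (SE 0.16, -0.58 to 0.13, edgeR adjusted p = 0.584), which did not pass.

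The median sums of fibroblast, endothelium and neutrophil markers were also highest in WT traction, and their part in the difference of Gpc1 was not tested. Between traction and sham the fibroblast list was split. Of its 8 markers, 5 had a higher mean in WT traction than in WT sham, and 3 in lacZ traction than in lacZ sham. For endothelium it was 5 of 6 in each genotype, and for neutrophils 5 of 5. Under traction, 7 of 8 fibroblast, 6 of 6 endothelium and 5 of 5 neutrophil markers had a lower mean in lacZ than in WT. Within WT traction, Gpc1 was at 244, 180 and 198 CPM in the order of replicates. The fibroblast sums there were 20414, 31523 and 55107 CPM. The endothelium sums were 783, 853 and 895 CPM, and the neutrophil sums 6719, 585 and 280 CPM. In GENCODE vM21 an exon of Ankmy1 on the opposite strand overlaps an exon of Gpc1. The kit marks strand, but the strand setting of the counting is not given in the sources used here.

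The 5 genes whose log2 CPM followed Gpc1 most closely over the 12 libraries, of 13102 compared, were Cpne1 (r = 0.98), Inhbb (0.98), Slc35e1 (0.97), Adarb1 (0.97) and B4galt1 (0.97). All values come from the same libraries, and r is a description of likeness. Inhbb, which encodes an activin subunit, averaged 49.3 CPM in WT sham, 112 in WT traction, 43.7 in lacZ sham and 52.8 in lacZ traction. B4galt1, a galactosyltransferase of the Golgi, averaged 105, 223, 97.8 and 117 CPM in the same order. Adarb1, an RNA-editing deaminase, averaged 21.2, 48.7, 19.5 and 27.1 CPM. In each of these 3 genes, as in Gpc1, the mean of lacZ traction was nearer to the sham means than to that of WT traction. The genes were picked for following Gpc1 over these libraries, so this shared pattern comes from the choice and is not a separate result.

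Sdc3, a syndecan with a long ectodomain that is best known from nerve and muscle, was the member that varied most between group means. It was at 114, 137 and 177 CPM in WT sham and at 187, 206 and 248 CPM in WT traction. In lacZ sham it was at 60.2, 47.6 and 89.6 CPM, and in lacZ traction at 53.7, 141 and 239 CPM. The lacZ sham libraries lay below all WT sham libraries and the WT traction libraries above them, while lacZ traction covered nearly the whole range.

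None of the 4 tests of Sdc3 passed after adjustment in edgeR. In sham, lacZ minus WT was -1.11 on the log2 scale (SE 0.43, -2.07 to -0.16, unadjusted p = 0.0265, adjusted p = 0.409). Traction minus sham was 1.14 in Tem1 lacZ/lacZ mice (SE 0.44, 0.18 to 2.1, unadjusted p = 0.0242, adjusted p = 0.598) and 0.59 in Tem1 WT/WT mice (SE 0.43; adjusted p = 0.377). The 2 traction effects differed by 0.55 (SE 0.61, -0.79 to 1.89, adjusted p = 0.795). The value in Tem1 lacZ/lacZ mice depended on single libraries: it was 0.56 without lacZ traction replicate 3 and 1.58 without replicate 1, with adjusted p = 0.991 and 0.0519. Exons of 2 genes on the opposite strand, Gm12970 and Gm26716, overlap those of Sdc3 in the annotation.

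Sdc1, the syndecan of epithelia and plasma cells, was the highest member also per kb of exon, and was at 651, 701 and 657 CPM in WT sham and 913, 572 and 630 CPM in WT traction. It was at 914, 1021 and 684 CPM in lacZ sham and at 917, 502 and 480 CPM in lacZ traction. All 4 groups overlapped, and the difference of traction minus sham was 0.07 in Tem1 WT/WT (SE 0.28, -0.54 to 0.69, edgeR adjusted p = 0.881) and -0.46 in Tem1 lacZ/lacZ mice (SE 0.28, -1.08 to 0.15, adjusted p = 0.658). The first of these changed sign to -0.17 without WT traction replicate 1, and to -0.05 with upper quartile scaling. The single high library of lacZ traction, replicate 1, was also the one in which the 10 keratinocyte markers summed to 47351 CPM, against 17523 and 21116 CPM in replicates 2 and 3. Plasma cell markers, the other known source, summed to 149 to 197 CPM in lacZ traction and 197 to 258 CPM in lacZ sham. The part of these cells in the values of Sdc1 was not tested.

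Sdc4, which is found in focal adhesions, was at 168, 140 and 110 CPM in WT sham and at 251, 133 and 98.1 CPM in WT traction. It was at 122, 118 and 93.1 CPM in lacZ sham and at 89.5, 112 and 88.8 CPM in lacZ traction. The high value of WT traction was again replicate 1, with its neutrophil sum of 6719 CPM, and without that library the difference of traction minus sham turned from 0.21 (SE 0.30; edgeR adjusted p = 0.676) to -0.29. Under traction, lacZ minus WT was -0.73 (SE 0.30) with the library and -0.23 without it, as a description. In Tem1 lacZ/lacZ mice traction minus sham was -0.20 (SE 0.30, -0.86 to 0.46, adjusted p = 0.869).

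Sdc2, the syndecan of mesenchymal cells, was at 105, 97.2 and 142 CPM in WT sham, 52.3, 107 and 152 CPM in WT traction, 114, 83.9 and 140 CPM in lacZ sham and 92.2, 80.2 and 108 CPM in lacZ traction. Gpc6, a glypican needed for growth of the long bones, was at 36.3, 37.5 and 57.3 CPM, 11.8, 50.6 and 78.1 CPM, 44.3, 22.4 and 42.4 CPM, and 23.0, 35.0 and 48.8 CPM in the same groups. Both were lowest in WT traction replicate 1 and highest in WT traction replicate 3. The fibroblast sums of these WT traction libraries were 20414, 31523 and 55107 CPM in the order of replicates, so both genes and the markers ran in the same order there; the part of the fibroblasts was not tested. Traction minus sham in Tem1 WT/WT mice was -0.14 for Sdc2 (SE 0.33, -0.87 to 0.58, edgeR adjusted p = 0.801) and 0.10 for Gpc6 (SE 0.54, -1.09 to 1.29, adjusted p = 0.919). Without WT traction replicate 1 they were 0.16 and 0.54. Sdc2 was also above 0 without WT sham replicate 3 (0.0449), and Gpc6 was below 0 without WT traction replicate 3 (-0.48) or WT sham replicate 1 (-0.0197), so neither direction is firm.

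**Figure D2:**
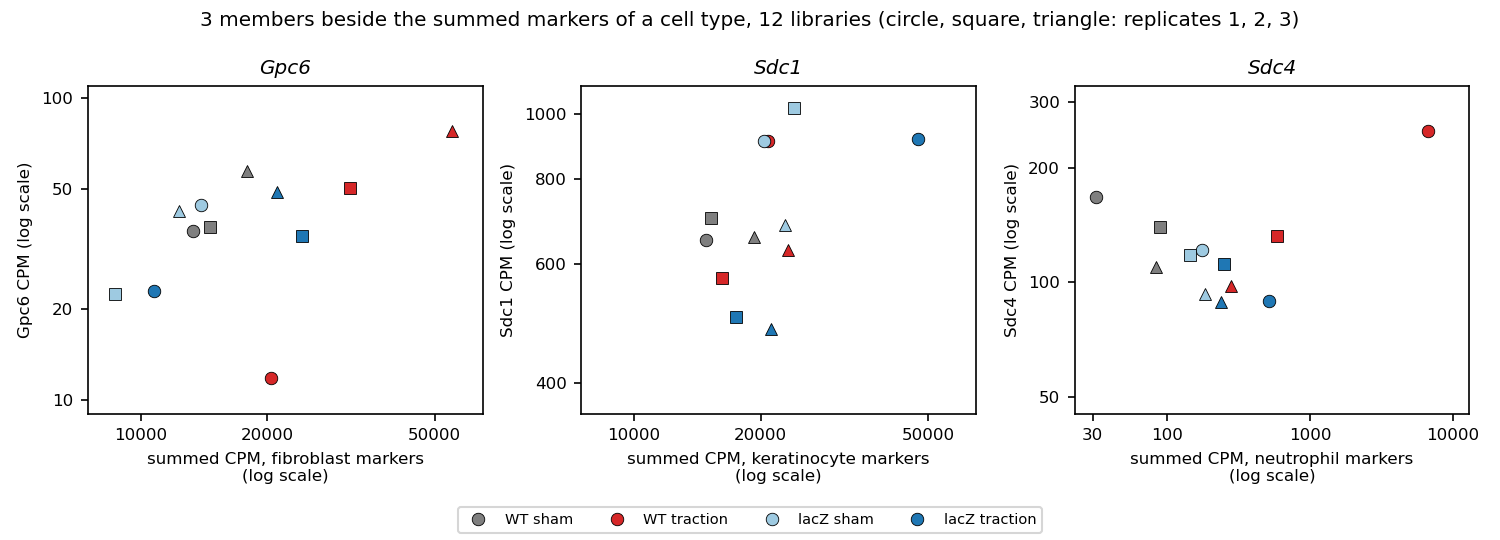
CPM of Gpc6, Sdc1 and Sdc4 against the summed CPM of markers of fibroblasts, keratinocytes and neutrophils, both on log scales, in the 12 libraries. WT traction replicate 1 stands apart with 11.8 CPM of Gpc6 and with 251 CPM of Sdc4 at a neutrophil sum of 6719 CPM, and lacZ traction replicate 1 has 917 CPM of Sdc1 at a keratinocyte sum of 47351 CPM.

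Gpc3, which binds Hedgehog ligands and restrains body growth, was at 94.2, 203 and 159 CPM in WT sham and at 64.8, 74.6 and 128 CPM in WT traction. It was at 202, 98.1 and 141 CPM in lacZ sham and at 81.9, 138 and 150 CPM in lacZ traction. The groups overlapped, and traction minus sham was -0.77 in Tem1 WT/WT mice (SE 0.37, -1.59 to 0.05, edgeR adjusted p = 0.184) and -0.25 in Tem1 lacZ/lacZ mice (SE 0.37, -1.07 to 0.57, adjusted p = 0.865). In sham, lacZ minus WT was -0.05 (SE 0.37; adjusted p = 0.969).

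Gpc4, a glypican with a role in Wnt signalling and at synapses, stayed in a narrow range, at 38.8 to 55.7 CPM in WT sham, 42.9 to 63.8 in WT traction, 35.5 to 43.1 in lacZ sham and 39.7 to 55.5 in lacZ traction. Its traction minus sham difference was 0.19 in Tem1 WT/WT (SE 0.20, -0.26 to 0.63, edgeR adjusted p = 0.562) and 0.21 in Tem1 lacZ/lacZ mice (SE 0.20, -0.24 to 0.65, adjusted p = 0.788), intervals that leave out a doubling. Gpc2, a glypican of the developing nervous system, was the lowest member, also per kb of exon, at 3.19 to 6.33 CPM over all libraries. It was at 134 to 297 counts in every library, and its 4 tests gave adjusted p of 0.438 or more. An exon of Gm43720 on the same strand overlaps Gpc2 in the annotation, so reads there could belong to either.

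**Figure D3:**
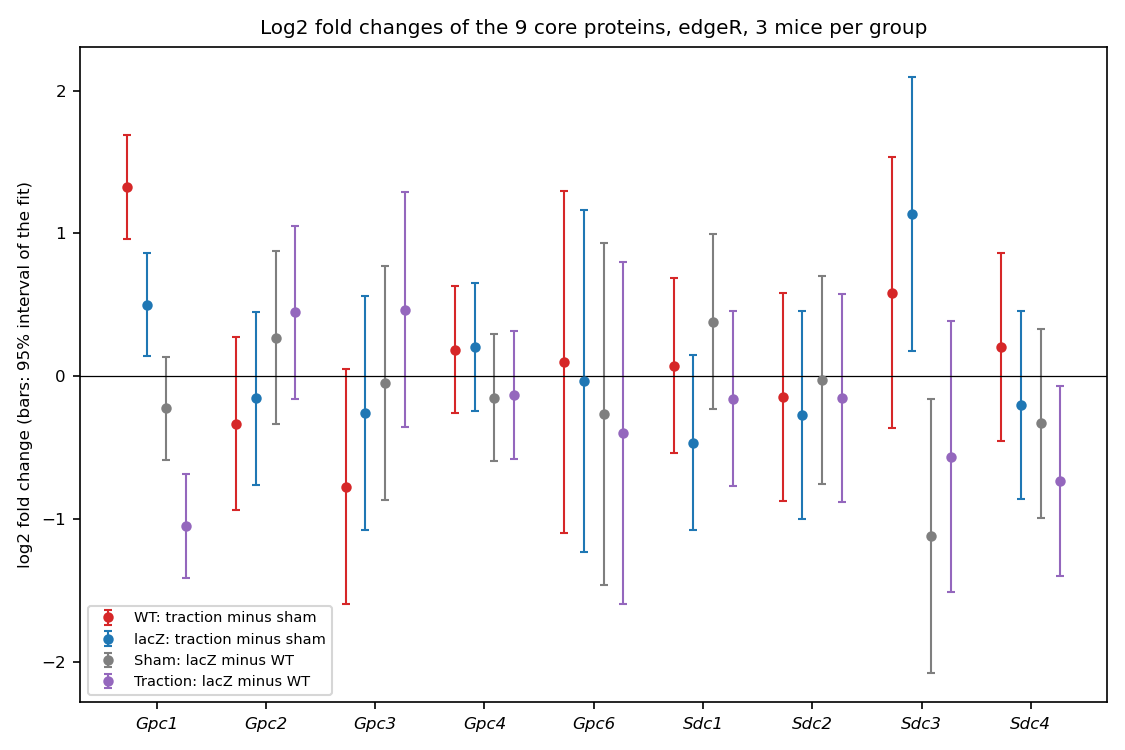
Log2 fold changes of the 9 members in 4 comparisons with 95% intervals from the edgeR fit, 3 mice per group. Gpc1 stands at 1.32 in WT and 0.50 in lacZ mice for traction minus sham and at -1.05 for lacZ minus WT under traction, and the intervals of most other members cross 0.

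All 9 members passed the filter on low counts, and 18853 genes were tested. For traction minus sham in Tem1 WT/WT mice, edgeR, DESeq2 and limma-voom each called 0 of the 8 members other than Gpc1, and 0 had an unadjusted p under 0.05 in edgeR. Of all genes edgeR called 9.15%, with 5.61% higher and 3.54% lower. DESeq2 called 3996 of 19694 genes and limma-voom 748 of 18853. Of these 8, the libraries of 1 member, Sdc3, did not overlap between the groups, where 35.7% of all genes did not. The median log2 difference of the 9 members was 0.10, against -0.01 for all genes tested.

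In Tem1 lacZ/lacZ mice edgeR called 0 of the same 8 members for traction minus sham, as it did for 0% of all genes. At an unadjusted p under 0.05 there was 1 of them, Sdc3, against 8.12% of all genes. DESeq2 and limma-voom also called 0 members, where they called 0.13% and 2.31% of all genes. In all 8 the libraries of the groups overlapped, where 12.9% of all genes did not. The median of the 9 members was -0.15, against -0.02 for all genes.

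Between genotypes in sham, edgeR called 0 of 9 members and 0.0106% of all genes, and at an unadjusted p under 0.05 there was 1 member, Sdc3, against 11.7%. DESeq2 and limma-voom called 0 members and 0.0813% and 0.0053% of all genes. Sdc3 was the 1 member without overlap, against 26.8% of all genes. Under traction edgeR called 1 of 9 members, Gpc1, and 0.106% of all genes. That call is the value the choice used, so it is a description and no test of the families. The call held without WT traction replicate 2 and was lost when any other single library was left out. Gpc1 was also the 1 member without overlap, which comes from the same values, against 26.6% of all genes. There lacZ was below WT for 7 of 9 members, with a median of -0.16 against 0.01 for all genes, but the sign of 4 of these 7 changed when single libraries were left out (Gpc4, -0.27 to 0.07; Gpc6, -0.81 to 0.21; Sdc1, -0.49 to 0.10; Sdc2, -0.44 to 0.24). For the difference between the traction effects, edgeR called 0 of the 8 members other than Gpc1 and 0% of all genes, with 0 of the 8 at an unadjusted p under 0.05 against 8.91% of all genes. DESeq2 called 0 members and 0.377% of all genes, and limma-voom 0 members and 0% of all genes.

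Levels of different genes can be compared only per length of transcript. In CPM per kb of exon, averaged over the 12 libraries, the order was Sdc1 (189), Sdc4 (49.9), Gpc3 (47.5), Sdc2 (30.1), Sdc3 (23.7), Gpc1 (22.4), Gpc4 (17.3), Gpc6 (6.32) and Gpc2 (1.13). With the length of 1 principal transcript per gene, an alternative chosen after seeing the data, Gpc3 and Sdc4 exchanged places. Sdc1 made up 58.6% to 72.2% of the syndecan sum as a mean of each group.

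The make-up of the glypicans differed more between groups than their sum. The sum was 97.4 ± 23.0, 101 ± 19.6, 90.7 ± 23.2 and 89.6 ± 18.3 CPM per kb (SD, n = 3) in WT sham, WT traction, lacZ sham and lacZ traction. Gpc1 took 17.2% ± 4.61, 41.0% ± 10.7, 15.5% ± 2.14 and 22.2% ± 4.42 of it in the same order, and Gpc3 took 56.8% ± 8.24, 32.2% ± 5.97, 59.2% ± 6.59 and 50.5% ± 6.08. In WT traction the lowest share of Gpc1, 31.2%, lay above the highest share in any other group, 26.6%. Since these shares hold the values of Gpc1 that chose the families, they are a description.

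**Figure D4:**
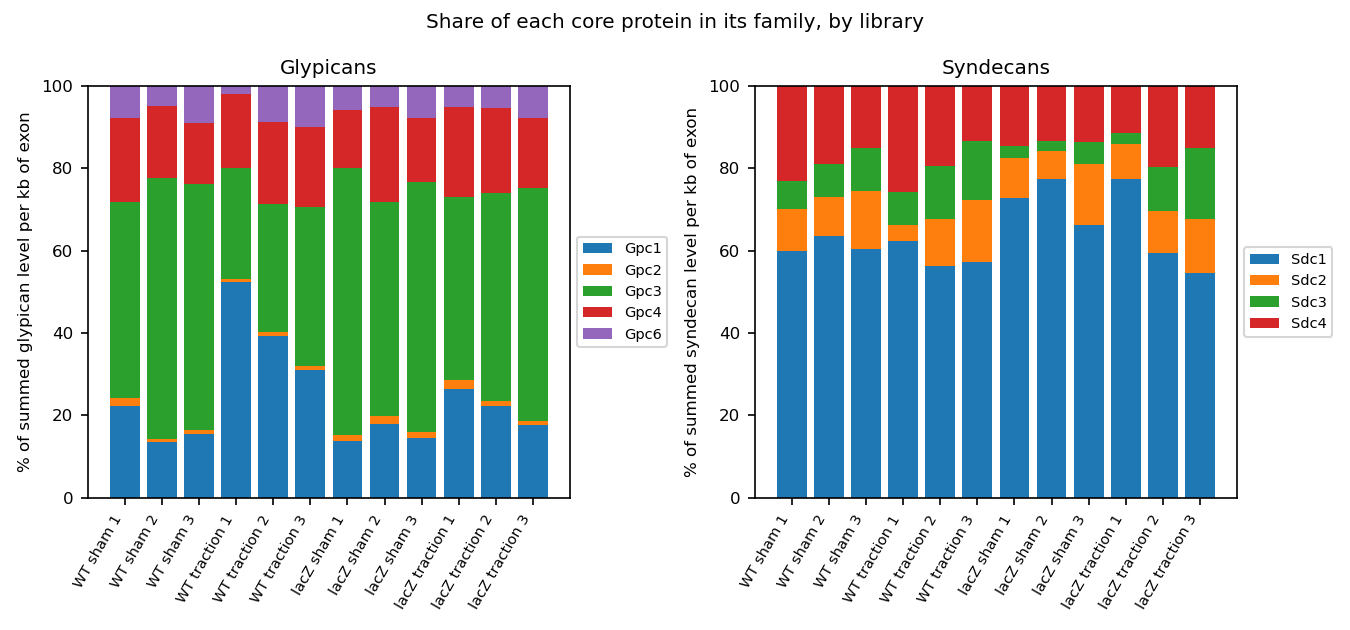
Share of each core protein in the summed level of its family per kb of exon, in percent, for each of the 12 libraries. Gpc1 takes 31.2% to 52.4% of the glypicans in WT traction and 13.6% to 26.6% in the other libraries, and Sdc1 is the largest share of the syndecans in every library.

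The genes that build, edit, release and bind these proteoglycans were taken as 9 lists of 98 genes, of which 92 were tested. In Tem1 WT/WT mice 21 were higher and 2 lower under traction than in sham (edgeR, adjusted p under 0.05), and 69 did not pass, where 5.61% of all genes were called higher and 3.54% lower. The median log2 difference over the 92 genes was 0.52, against -0.01 for all genes. The lists were chosen with earlier results of these data known. Their counts and medians, here and in the other comparisons, are thus a description and no separate test of the pathway. Without WT traction replicate 1, 7 of these 23 were called, namely Actn1, Adamts4, Mmp14, Mmp9, Pdgfb, Pxylp1 and Thbs1. The other genes named as called in the next paragraphs kept their sign without that library but had edgeR adjusted p of 0.0519 to 0.135. The log2 difference went from 4.17 to 2.90 for Mmp9, from 3.81 to 1.33 for Srgn, from 3.75 to 2.64 for Tnc and from 2.93 to 2.14 for Thbs1. It went from 1.77 to 1.22 for Xylt1, from 1.72 to 1.08 for Furin and from 0.88 to 0.61 for Sdcbp. The count was 0 without WT sham replicate 1 or 2, where 0 genes of the whole table were called. It was 13 without WT sham replicate 3 (820 genes of the whole table) and 11 without WT traction replicate 3 (704). It was 4 without lacZ sham replicate 3 (169) and 15 without lacZ traction replicate 3 (965). Without WT traction replicate 1, 360 genes of the whole table were called, against 1725 with all 12 libraries. The calls of single genes given next thus rest on all 12 libraries.

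Among 7 genes that start the chain and build its linker, 3 rose and none fell. They were Xylt1 (1.77, SE 0.40, adjusted p = 0.0329), which adds the first sugar to the serine, Pxylp1 (1.13, SE 0.23), a xylose phosphatase, and B4galt7 (0.76, SE 0.16), which adds the next sugar. Xylt1 was at 5.25, 6.35 and 6.96 CPM in WT sham and 34.0, 15.1 and 14.2 CPM in WT traction, without overlap, and at 2.85 to 7.86 CPM in the 6 lacZ libraries. Of 6 genes of chain polymerisation, 1 rose, Ext1 (0.77, SE 0.19), a subunit of the polymerase. Of 16 tested genes of sulfation and epimerisation, 1 rose, Ndst1 (0.79, SE 0.19), which starts the sulfation of the chain, and 15 did not pass.

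In chain editing and breakdown few genes passed after adjustment. Log2 differences were above 0 for both editing genes (median 0.83) and for 9 of 10 breakdown genes (median 0.597). The median of all genes was -0.01. Of the 2 endosulfatases, which remove sulfate from finished chains outside the cell, Sulf1 rose (1.01, SE 0.25, edgeR adjusted p = 0.0372). It was at 152, 119 and 202 CPM in WT sham and 287, 302 and 365 CPM in WT traction, and the lacZ traction libraries were at 139, 136 and 105 CPM. Among the genes of breakdown in lysosomes or by heparanase, Hgsnat (0.62, SE 0.15) rose. Hpse, the heparanase itself, did not pass (0.54, SE 0.26, adjusted p = 0.178).

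The list of core protein release holds proteases known to shed syndecans, their activators and inhibitors, and Notum. Of its 11 tested genes, 5 rose and none fell. The 4 largest were Mmp9 (4.17, SE 0.71), Adamts4 (2.70, SE 0.47), Furin (1.72, SE 0.38) and Mmp14 (1.33, SE 0.26), and Mmp2 was the other one. Mmp9 was at 12 to 24.1 CPM in WT sham and at 757, 141 and 150 CPM in WT traction. Its highest value was in replicate 1 with the neutrophil sum of 6719 CPM, and neutrophils are a known source of Mmp9, whose share from those cells was not tested. The lacZ traction libraries had 17.3, 27.0 and 20.8 CPM of Mmp9, at neutrophil sums of 517, 249 and 236 CPM. Notum did not pass (-1.42, SE 0.45, edgeR adjusted p = 0.0649).

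Of 8 cytosolic partners of the syndecans, 3 rose: Synpo (1.29, SE 0.28), Actn1 (1.04, SE 0.18), which encodes an actin cross-linker, and Sdcbp (0.88, SE 0.25, edgeR adjusted p = 0.0496), which encodes syntenin. Sdcbp was at 190, 188 and 280 CPM in WT sham and 536, 318 and 358 CPM in WT traction, so its highest value was again replicate 1. Of 10 other proteoglycans that carry or can carry heparan sulfate, Srgn (3.81, SE 0.96) and Col18a1 (1.33, SE 0.28) rose. Srgn encodes serglycin of leukocyte granules. It was at 2335, 205 and 114 CPM in WT traction, in the order of the neutrophil sums of 6719, 585 and 280 CPM. In lacZ traction it was at 71.5, 72.2 and 156 CPM, not in the order of the sums of 517, 249 and 236 CPM. The share of Srgn from neutrophils was not tested.

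Of 22 tested ligands and matrix proteins that bind heparan sulfate, 3 rose and 2 fell. Tnc (3.75, SE 0.78), Thbs1 (2.93, SE 0.51) and Pdgfb (0.95, SE 0.22) rose, which encode tenascin-C, thrombospondin-1 and a platelet-derived growth factor chain. Bmp4 (-1.49, SE 0.36) and Wnt11 (-1.01, SE 0.25), which encode morphogens, fell. Bmp4 was at 21.8, 23.1 and 12.4 CPM in WT sham and 7.90, 8.19 and 4.33 CPM in WT traction, while its lacZ libraries were at 7.85 to 16.9 CPM. Fgf2, a ligand of Gpc1 chains, did not pass (0.31, SE 0.46, edgeR adjusted p = 0.685).

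**Figure D5:**
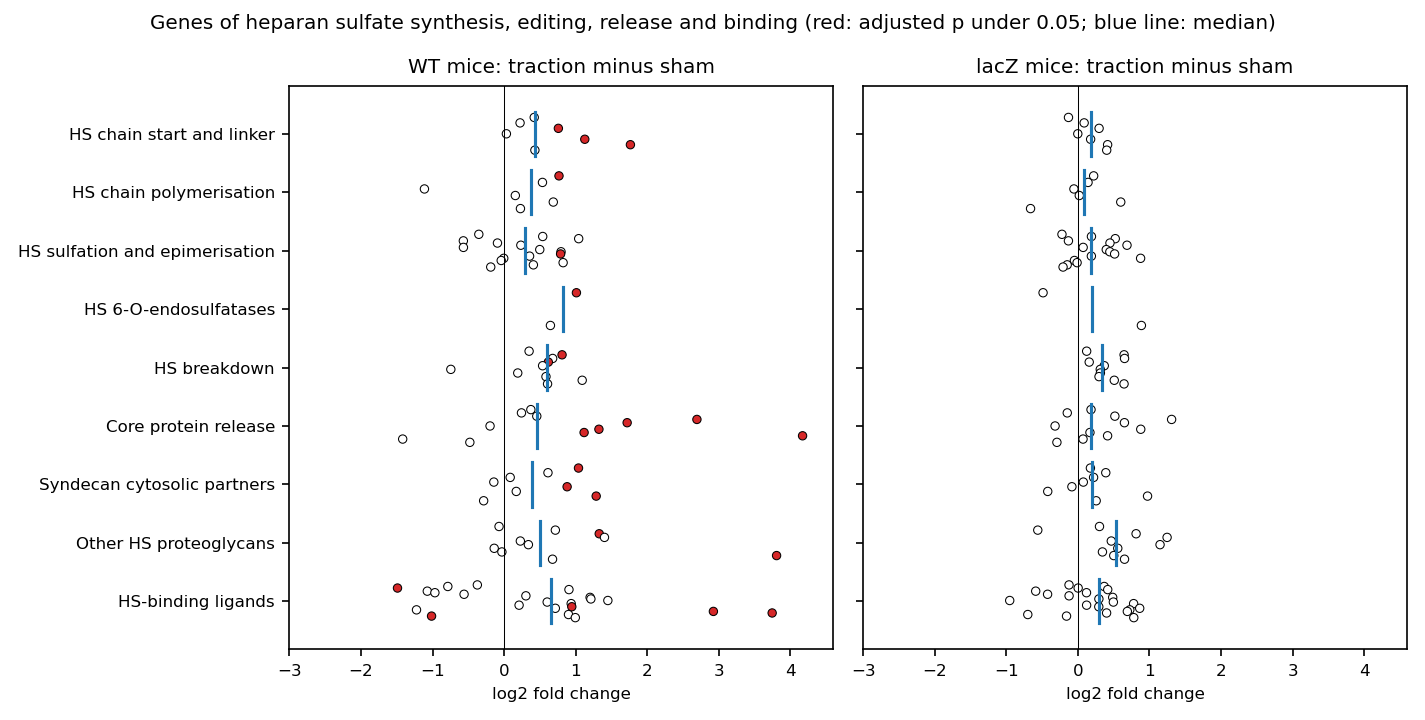
Log2 fold changes of traction minus sham for the 92 tested genes of 9 heparan sulfate lists, in Tem1 WT/WT mice (left) and Tem1 lacZ/lacZ mice (right); red points have an edgeR adjusted p under 0.05 and blue lines are list medians. There are 23 red points in Tem1 WT/WT mice, with Mmp9, Srgn and Tnc farthest to the right, and 0 in Tem1 lacZ/lacZ mice.

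In Tem1 lacZ/lacZ mice edgeR called 0 of the 92 genes between traction and sham, where it called 0% of all genes. There were 14 with an unadjusted p under 0.05, against 8.12% of all genes, and the median was 0.29, against -0.02 for all genes. DESeq2 called 0 and limma-voom 7, all higher, where they called 0.13% and 2.31% of all genes. In sham, edgeR, DESeq2 and limma-voom each called 0 of 92 between genotypes, where they called 0.0106%, 0.0813% and 0.0053% of all genes. There were 8 with an unadjusted p under 0.05 in edgeR, against 11.7% of all genes, and the median of lacZ minus WT was -0.29, against -0.01 for all genes. Under traction edgeR and limma-voom called 0 of 92, where limma-voom called 0.0849% of all genes, while DESeq2 called 26, all lower in lacZ, where it called 12.7% of all genes. In edgeR 43 of the 92 had an unadjusted p under 0.05, against 26.1% of all genes, with a median of -0.44 against 0.01 for all genes. For the difference between the traction effects edgeR and limma-voom called 0, as they did for 0% of all genes, and DESeq2 called 2, both lower, where it called 0.377% of all genes. There were 22 with an unadjusted p under 0.05 in edgeR, against 8.91% of all genes. The change of these genes under traction in Tem1 WT/WT mice is thus not shown by edgeR to differ between genotypes.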

How the data were processed

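Scars of 12 mice were sequenced as stranded mRNA libraries. Per the labels' processing notes and the methods, the authors trimmed reads with fastp 0.20.0, aligned them to GRCm38 with HISAT2 2.1.0 and counted them with featureCounts 2.0.0. The deposited values are raw counts per gene and library, without normalization. Which annotation was used, whether counting respected strand and how multi-mapping reads were treated is not given in the sources used here.

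Groups were taken from the labels. The counts were fitted in edgeR 4.0.16 (R 4.3.3, limma 3.58.1) with filterByExpr, TMM factors and the robust quasi-likelihood F test over all 12 libraries and 4 groups, with Benjamini-Hochberg adjustment over all 18853 genes tested and a threshold of 0.05. Totals were 41536788 to 64644293 counts per library, and precision rests mainly on the 3 mice of a group. DESeq2 1.42.0, the tool of the study, and limma-voom were alternatives, beside other normalizations, filters and fits and each library left out in turn. The scripts were tested on simulated data. No 2 libraries of a group were identical.

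The members and gene lists were chosen with earlier results of these data known. Named are the 9 members, the 5 genes most like Gpc1 by Pearson's r of log2 CPM (prior count 2, mean log2 CPM of at least 1), up to 4 called genes per list with the largest change (1 called gene is not reported here), Cd248 and some genes of a list for their role. Mmp2, the neutrophil-dependent values and the genes called without WT traction replicate 1 were named after their values were seen. Sequences and exon lengths are from GENCODE vM21. All 9 members and the 5 genes like Gpc1 were matched to the RefSeq table of GRCm38.p6 by symbol. Not tested, for low counts, were Ndst4, Hs6st3, Hs3st2, Hs3st4, Mmp7 and Ihh. Of the marker lists, Igkc and Krt85 had no row under these symbols.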

Additional observations from a re-analysis of the deposited data

How the results depend on the processing

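Between traction and sham of Tem1 WT/WT the count of members called was 1 in edgeR, DESeq2 and limma-voom, which is Gpc1 and shares libraries with the choice of the families. It was 0 with only the 6 libraries of the groups compared, and 0 to 1 when single libraries were left out, being 0 without WT sham replicate 1 or replicate 2. In these 3 fits 0 genes of the whole table were called. The call between genotypes under traction, which chose the families, was 1 member with DESeq2 size factors and in DESeq2. It was 0 with upper quartile scaling, with all genes of at least 1 count, with at least 10 counts in every library, in limma-voom, without the robust fit and with only 6 libraries, and 0 to 1 when single libraries were left out, being 1 only without WT traction replicate 2. The log2 difference of Gpc1 there lay between -1.17 and -0.88 over all alternatives. In the other 3 comparisons 0 members were called under every alternative run.

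The 23 called genes of the heparan sulfate lists became 39 in DESeq2, which called 3996 of 19694 genes. They became 0 with only 6 libraries, where 0 genes of the whole table were called. When single libraries were left out they became 0 to 27, being 7 without WT traction replicate 1, where 360 of 19388 genes were called. Upper quartile scaling moved the median of all genes to -0.12 for traction in Tem1 WT/WT mice. It called 734 of 1673 genes higher, against 1057 of 1725 with TMM.

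The labels give no pairing of same-numbered mice of different groups, and the main fit used none. Of 18 pairings, 8 had a correlation of deviations over 0.1, and all 18 ran from -0.324 to 0.25. These values cannot show whether mice of the same number shared a batch. With the replicate number as a block, 23 list genes and 1 member were called between traction and sham of Tem1 WT/WT, against 1467 of 18853 genes. Between genotypes under traction 0 members were called, against 15 of 18853 genes. With the block, log2 differences changed sign to 0.0232 for Gpc3 (genotype in sham), -0.0100 for Gpc4 (difference of the traction effects) and -0.0476 for Gpc6 (traction in Tem1 WT/WT).

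Other changes of sign were among values that passed no test. With upper quartile scaling they were 0.00426 for Gpc3 and 0.0295 for Sdc2 (both genotype in sham) and -0.0450 for Sdc1 (traction in Tem1 WT/WT). In limma-voom they were 0.11 for Gpc6 (traction in Tem1 lacZ/lacZ), 0.0941 for Gpc6 (difference of the traction effects), -0.0801 for Sdc1 (traction in Tem1 WT/WT) and 0.0754 for Sdc2 (genotype in sham). With all genes of at least 1 count Gpc6 was at 0.00489 (traction in Tem1 lacZ/lacZ). Leaving out single libraries gave, for traction in Tem1 WT/WT, ranges of -0.00053 to 0.39 (Gpc4), -0.48 to 0.54 (Gpc6), -0.17 to 0.22 (Sdc1), -0.52 to 0.16 (Sdc2) and -0.29 to 0.47 (Sdc4). For traction in Tem1 lacZ/lacZ they were -0.24 to 0.0272 (Gpc2), -0.45 to 0.0884 (Gpc3) and -0.33 to 0.25 (Gpc6). For genotype in sham they were -0.37 to 0.24 (Gpc3), -0.24 to 0.0617 (Gpc4) and -0.23 to 0.16 (Sdc2). For the difference of the traction effects they were -0.0348 to 0.43 (Gpc2), -0.19 to 0.24 (Gpc4), -0.53 to 0.49 (Gpc6), -0.39 to 0.28 (Sdc2), -0.0280 to 1.00 (Sdc3) and -0.64 to 0.12 (Sdc4). The cause was not tested. With 3 mice a group, differences smaller than the printed intervals could not be told from 0.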
